A study of Mus musculus with 9 samples.

Results

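The goblet cell genes described here are Muc2, Tff3, Agr2, Fcgbp, Zg16, Spdef, Retnlb, Spink4 and Ern2, chosen by name. All 9 symbols had a row in the count table of 23955 rows. RNA-seq had been run on mouse intestinal organoids, which are epithelial cultures grown in a gel, in 3 groups of 3 samples. MIN organoids came from normal-appearing gut epithelium next to the tumors of APCmin/+ mice, which carry a truncating mutation in 1 copy of the Wnt pathway brake Apc, so this reference epithelium is Apc-mutated and not wild type. Adenoma organoids came from the adenomatous polyps of such mice, and Sulindac organoids were polyp organoids that had been exposed to sulindac, a nonsteroidal anti-inflammatory drug that inhibits cyclooxygenases. All groups shared a medium with Noggin, EGF, bFGF, R-spondin1 and B27. The gut segment, the number and pooling of the mice, and the dose, duration and vehicle of sulindac in the organoids are not given in the sources used here. The 3 samples of a group were submitted as biological replicates with no statement that they came from separate mice, so the p-values measure only the spread between these samples.

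Goblet cells are secretory cells of the gut lining that make the mucus layer. They arise from progenitors that escape Notch signaling and switch on Atoh1, after which Spdef drives their maturation. Their endoplasmic reticulum folds very large mucins with dedicated helpers such as Agr2, and the granules carry Muc2 together with small proteins that cross-link, protect or modify the gel. Because goblet, Paneth, enteroendocrine and tuft cells all descend from secretory progenitors, the markers of those cells are reported beside the goblet genes.

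Each sample had between 30881206 and 48412477 counts, so that 3 counts, taken here as the floor of detection, equal 0.0641 to 0.10 CPM, the counts per 1000000 counts of a library whose total was scaled by TMM. MIN 3 and Adenoma 3 stood farther from their group than the other samples did, with a chi-square per gene of 69.0 to 81.7 against 19.4 between MIN 1 and MIN 2 and 20.7 between Adenoma 1 and Adenoma 2. The epithelial markers Epcam, Cdh1, Krt8 and Vil1 summed to 4023 to 5589 CPM in MIN, against 2157 to 2543 CPM in Adenoma and 2811 to 3361 CPM in Sulindac. Of the 4 fibroblast markers, Col1a2 and Col3a1 had no count in any sample, while Col1a1 had 13, 10 and 22 counts in MIN and 40, 32 and 54 in Adenoma, and Pdgfra had 5, 8 and 6 counts in MIN and 28, 39 and 25 in Adenoma. The leukocyte marker Ptprc had 0, 1 and 0 counts in MIN and 8, 4 and 4 in Adenoma. All of these levels were small beside those of the epithelial markers.

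Adenoma organoids had far less RNA of the goblet program than MIN organoids. Of the 9 genes, 8 passed the low-count filter and all 8 were lower in Adenoma at a false discovery rate (FDR) of 1%, where 20.1% of the 13744 genes tested were lower and 18.5% were higher. The median log2 fold change of the 8 genes was -4.91, against -0.01 over all genes tested. The groups did not overlap for any of the 8, a pattern seen in the lower direction for 32.2% of all genes tested. Zg16, with 1, 0 and 0 counts in Adenoma, passed the filter only through MIN, so it could be called only lower. Spink4, Muc2 and Zg16 changed most, and Tff3 and Agr2 least. In these bulk samples a smaller number of goblet cells and less RNA per goblet cell cannot be told apart.

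**Figure D1:**
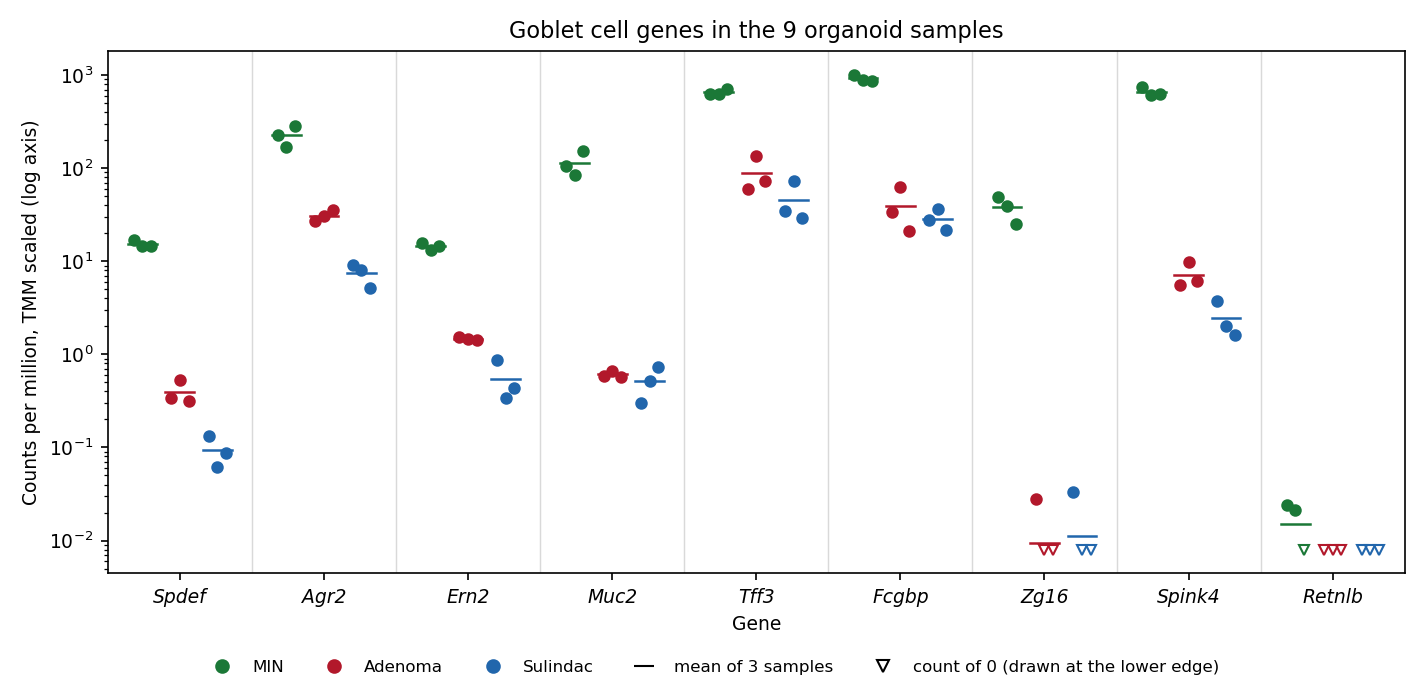
Level of each goblet cell gene in every sample, in TMM-scaled CPM on a log axis, with the mean of the 3 samples of a group as a line and counts of 0 as open triangles at the lower edge. For the 8 genes other than Retnlb, all MIN samples lie above all Adenoma and Sulindac samples, and Retnlb is at the floor everywhere.

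Spdef, the ETS family transcription factor that drives goblet and Paneth cell maturation, stood at 16.9, 14.7 and 14.4 CPM in MIN, at 0.337, 0.531 and 0.318 CPM in Adenoma, and at 0.133, 0.0611 and 0.0873 CPM in Sulindac. The 3 groups formed 3 separate levels, and the Sulindac values rested on 4, 2 and 3 counts, close to the floor. The change from MIN to Adenoma was -5.26 on the log2 scale (SE 0.25, edgeR quasi-likelihood adjusted p = 6.2e-07), and the change from MIN to Sulindac was -7.32 (SE 0.26, adjusted p = 9.56e-08). Between Adenoma and Sulindac the difference of -2.04 (SE 0.49) had an adjusted p = 0.0132 and was not called at 1%, although the groups did not overlap.

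Agr2, a protein disulfide isomerase of the endoplasmic reticulum needed to fold Muc2, was at 229, 170 and 286 CPM in MIN, 27.2, 30.3 and 35.5 CPM in Adenoma, and 9.23, 8.16 and 5.21 CPM in Sulindac. Every Adenoma sample lay below every MIN sample and above every Sulindac sample. The log2 change of Agr2 from MIN to Adenoma was -2.88 (SE 0.20, adjusted p = 6.88e-06). It then differed between Sulindac and Adenoma by -2.03 (SE 0.21, adjusted p = 0.000376), the only goblet gene called in that comparison. With each of the 6 samples left out in turn, that change ranged from -2.21 to -1.82 and stayed called.

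Ern2, the mucosal IRE1beta sensor of unfolded protein found in goblet cells, was at 15.6, 13.4 and 14.8 CPM in MIN, 1.54, 1.48 and 1.42 CPM in Adenoma, and 0.867, 0.336 and 0.436 CPM in Sulindac. Again the 3 groups did not overlap, and the 3 Adenoma samples lay within a narrow band. The change from MIN to Adenoma was -3.29 (SE 0.17, adjusted p = 1.28e-06), whereas the change from Adenoma to Sulindac of -1.44 (SE 0.37) had an adjusted p = 0.0181. Ern1, the broadly expressed paralog IRE1alpha, averaged 42.5 CPM in MIN and 44.5 CPM in Adenoma, with a difference of 0.07 (SE 0.25, adjusted p = 0.837). The paralog Agr3 averaged 0.720 and 0.529 CPM in the same groups, with a difference of -0.45 (SE 0.41, adjusted p = 0.394).

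Muc2, the gel-forming mucin that builds the intestinal mucus layer, was at 105, 84.2 and 152 CPM in MIN, 0.590, 0.670 and 0.578 CPM in Adenoma, and 0.300, 0.520 and 0.727 CPM in Sulindac. Between 3939 and 5572 counts in MIN stood against 20 to 24 counts in Adenoma and 9 to 25 counts in Sulindac. The MIN samples lay far above the rest, and the Adenoma and Sulindac values overlapped. The log2 change was -7.52 from MIN to Adenoma (SE 0.29, adjusted p = 2.27e-07) and -7.75 from MIN to Sulindac (SE 0.33, adjusted p = 4.97e-07). The difference between Sulindac and Adenoma was -0.23 (SE 0.37, adjusted p = 0.668), and it was 0.033 without Sulindac 1, the sample with the lowest value.

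Fcgbp, the IgG Fc binding protein of mucus that attaches to Muc2, had the highest CPM of the 9 genes in MIN, with 1016, 897 and 870 CPM. It was at 34.1, 62.2 and 21.3 CPM in Adenoma and 27.5, 36.7 and 21.8 CPM in Sulindac, which overlapped. The change from MIN was -4.56 in Adenoma (SE 0.37, adjusted p = 1.61e-05) and -5.02 in Sulindac (SE 0.20, adjusted p = 2.34e-07). The difference between Sulindac and Adenoma, -0.45 (SE 0.36, adjusted p = 0.361), was 0.056 without Adenoma 2. Of the 50-base stretches of Fcgbp transcripts in GENCODE M21, 6.39% also occur in the transcripts of the gene model 9530053A07Rik, and 0% for each of the other 8 genes occur in any other gene.

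The promoters of Muc2 and Fcgbp are shown because both genes code for proteins of the mucus gel. Of the 4 goblet genes with a promoter sequence, only these held a searched motif. They were picked for that, and whether the letters bear on the fall of goblet genes was not tested. RefSeq promoter sequences of 250 bases before to 50 bases after the start site, on GRCm38.p6, were found for 4 of the 9 genes, Muc2, Fcgbp, Agr2 and Spdef. The letters searched on both strands were TATAAA, a form of the TATA box, and CAGCTG, a form of the E-box. Basic helix-loop-helix factors such as Atoh1 bind the E-box. Also searched were the ETS form CCGGAT, the forkhead form TGTTTAC, and CTTTGAT, which TCF/LEF factors of the Wnt pathway bind. Only these exact letters were searched, so variant forms of a motif, including those of the TATA box, stay in small letters. Matches are in capitals. Both sequences are read 5′ to 3′ along the plus strand, which is the strand of the genes.
Muc2, chr7:141690090-141690389: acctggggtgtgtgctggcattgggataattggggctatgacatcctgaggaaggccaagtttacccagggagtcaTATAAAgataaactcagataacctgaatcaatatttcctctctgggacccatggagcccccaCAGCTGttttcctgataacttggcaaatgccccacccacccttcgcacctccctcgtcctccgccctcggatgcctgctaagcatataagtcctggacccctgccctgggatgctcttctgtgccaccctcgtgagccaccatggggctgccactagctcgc
Fcgbp, chr7:28070986-28071285: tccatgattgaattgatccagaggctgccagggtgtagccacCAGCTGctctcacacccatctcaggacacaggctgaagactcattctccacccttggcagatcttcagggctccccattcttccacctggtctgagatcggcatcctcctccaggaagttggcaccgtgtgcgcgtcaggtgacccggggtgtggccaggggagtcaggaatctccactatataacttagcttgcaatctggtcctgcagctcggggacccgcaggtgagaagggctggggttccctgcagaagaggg

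Muc2 held TATAAA at bases -174 to -169 and CAGCTG at -112 to -107, counted from the start site, and Fcgbp held CAGCTG at -208 to -203. None of the searched letters was in the Agr2 or Spdef window. Over the 32851 promoters of the table, 16.3% held CAGCTG, 13.6% TATAAA, 6.04% CCGGAT, 3.73% CTTTGAT and 3.65% TGTTTAC. These matches are descriptions of letters and not of bound sites or of the place of a working TATA box.

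Tff3, the trefoil peptide that goblet cells release for epithelial repair, was at 629, 631 and 709 CPM in MIN, 59.4, 134.9 and 73.4 CPM in Adenoma, and 34.4, 73.6 and 29.4 CPM in Sulindac. Adenoma and Sulindac overlapped, since Sulindac 2 was as high as Adenoma 3. Its change from MIN was -2.88 in Adenoma (SE 0.29, adjusted p = 5.35e-05) and -3.85 in Sulindac (SE 0.33, adjusted p = 2.56e-05). The difference of -0.96 between Sulindac and Adenoma (SE 0.39) had an adjusted p = 0.0865.

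Spink4, a small Kazal-type inhibitor secreted by goblet cells, was at 747, 607 and 629 CPM in MIN, 5.53, 9.83 and 6.13 CPM in Adenoma, and 3.77, 2.02 and 1.60 CPM in Sulindac. The 3 groups were separate. The change from MIN was -6.52 in Adenoma (SE 0.26, adjusted p = 2.67e-07) and -8.08 in Sulindac (SE 0.31, adjusted p = 2.79e-07). Between Sulindac and Adenoma it was -1.54 (SE 0.36, adjusted p = 0.0117), just outside the 1% threshold.

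Zg16, a lectin of the mucus that binds bacterial cell walls, had 2031, 1846 and 930 counts in MIN, or 49.4, 39.4 and 25.3 CPM. It had 1, 0 and 0 counts in Adenoma and 1, 0 and 0 counts in Sulindac, all under the floor. Summed over the 3 samples of a group, the scaled ratio of MIN to Adenoma was 4089 (95% interval 733 to 161528, counting error only), and the ratio of MIN to Sulindac was 3745 (672 to 147946). Both differences passed the test (adjusted p = 5.57e-07 and 8.84e-07). Sulindac and Adenoma were both under the floor, so no fold is given.

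Retnlb, the resistin-like peptide RELMbeta that goblet cells make when exposed to microbes or parasites, had 1, 1 and 0 counts in MIN and 0 in all 6 other samples. It was not detectable at this depth in any group and passed no filter. Of its paralogs, Retnla and Retnlg had no count in any sample, and Retn had 0 in each MIN sample, 3, 4 and 5 in Adenoma and 2, 0 and 6 in Sulindac.

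**Figure D2:**
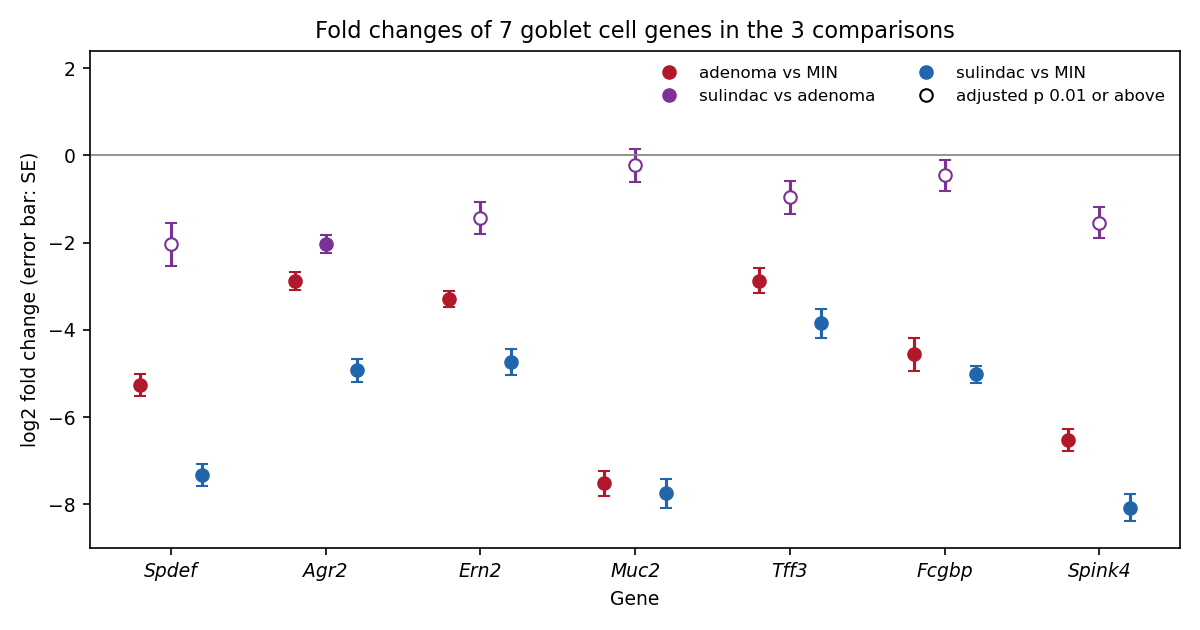
Log2 fold changes with their standard errors for the 7 goblet cell genes tested in all 3 comparisons, with open symbols where the adjusted p was 0.01 or above. Changes from MIN range from -2.88 to -8.08 and are all filled, while in Sulindac against Adenoma the only filled symbol is Agr2.

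The comparison of Sulindac with Adenoma asks what the drug did to polyp organoids, and for goblet genes it found lower values or no called difference, and no called rise. Of 7 genes tested, 1 was lower, Agr2, where 9.10% of the 12962 genes tested were lower and 8.32% were higher. All 7 estimates were negative, from -2.04 for Spdef to -0.23 for Muc2, with a median of -1.44 against -0.01 over all genes. The groups did not overlap for 4 genes, Spdef, Agr2, Ern2 and Spink4, where 26.0% of all genes were lower without overlap. Spdef (4, 2 and 3 counts in Sulindac) passed the filter only through Adenoma, so it could be called only lower. Muc2, with 9 counts in Sulindac 1, also met the filter in all 3 samples only in Adenoma. The number called depended on the setting. Without Sulindac 1 it was 3, with Spink4 (-1.98, adjusted p = 0.00674) and Ern2 (-1.92, adjusted p = 0.00989) called as well, while over all genes 492 were lower against 1179 with all samples. Scaling by library size alone moved the median of all genes to -0.18 and called 3 goblet genes, with 603 genes higher and 1983 lower in all against 1078 and 1179 with TMM.

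Sulindac organoids did not have goblet gene levels near those of MIN. Against MIN, 8 of 8 genes tested were lower in Sulindac, where 26.8% of the 13551 genes tested were lower and 23.0% were higher. The groups did not overlap for any of the 8, as for 36.0% of all genes in that direction. Zg16 (1, 0 and 0 counts in Sulindac) and Spdef (4, 2 and 3) passed the filter only through MIN, so they could be called only lower. The median change was -6.17, against -0.03 over all genes. Agr2 changed by -4.93 (SE 0.27, adjusted p = 1.85e-06) and Ern2 by -4.75 (SE 0.30, adjusted p = 2.61e-06). The 3 comparisons share their samples pairwise, so their counts are not independent of each other.

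The genes fell by different factors, so the make-up of the goblet transcripts differed between the groups. The 9 genes together took 0.281%, 0.237% and 0.258% of all counts in MIN, 0.0140%, 0.0263% and 0.0142% in Adenoma, and 0.00740%, 0.0113% and 0.00575% in Sulindac. Among those counts Tff3 held 22.4% to 26.3% in MIN, 46.2% to 56.2% in Adenoma and 45.1% to 60.6% in Sulindac. Muc2 held 3.43% to 5.62% in MIN, 0.279% to 0.458% in Adenoma and 0.394% to 1.23% in Sulindac. For each Muc2 count there were 4.67 to 7.49 Tff3 counts in MIN and 101 to 201 in Adenoma, with 40.5 to 142 in Sulindac. For each Muc2 count there were 1.89 to 2.19 Agr2 counts in MIN, 45.2 to 61.4 in Adenoma and 7.16 to 30.8 in Sulindac, 3 ranges that do not overlap. Spink4 held 23.3% to 26.6% of the goblet counts in MIN and 4.10% to 4.42% in Adenoma.

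**Figure D3:**
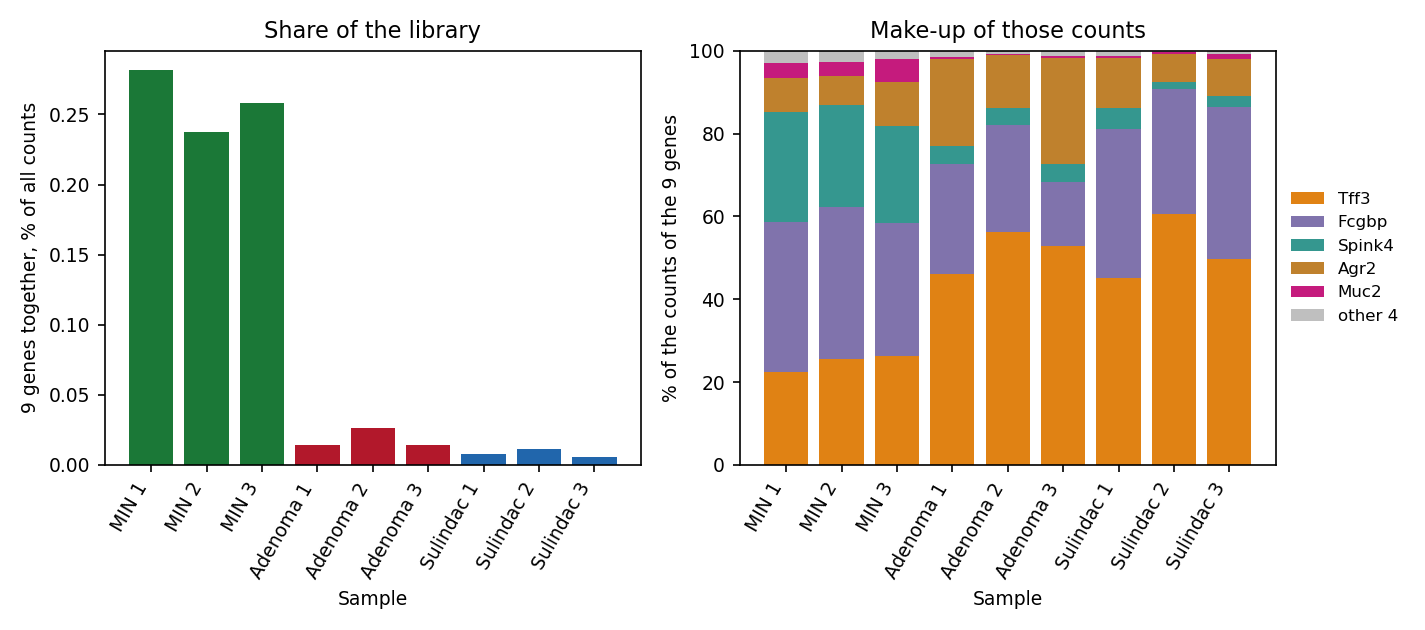
Left, the 9 goblet cell genes together as a percentage of all counts in each sample. Right, the percentage of those counts that each gene took, where Tff3 grows from 22.4% to 26.3% in MIN to 46.2% to 56.2% in Adenoma while Spink4 and Muc2 shrink.

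Compared per length, with CPM divided by the kilobases of the longest coding transcript in GENCODE M21, the order in MIN was Spink4 (1665 CPM per kb), Tff3 (1331), Agr2 (291), Fcgbp (117), Zg16 (52.6), Muc2 (38.8), Spdef (8.0) and Ern2 (5.0). In MIN the ranges of neighbors overlapped only between Zg16 and Muc2. In Adenoma the order was Tff3 (181 CPM per kb), Agr2 (39.5), Spink4 (18.0), Fcgbp (4.94), Ern2 (0.508), Muc2 (0.209) and Spdef (0.206), where Muc2 and Spdef overlapped. In Sulindac the same order held by the means, from Tff3 (92.9 CPM per kb) to Spdef (0.0489), and Agr2 overlapped with Spink4, Spink4 with Fcgbp, and Ern2 with Muc2. The longest coding Muc2 transcript in that annotation is 2926 bases and covers only part of this large mucin, so the place of Muc2 in this order is uncertain. Adenoma 2 was the highest Adenoma sample for 5 of the 8 genes, as MIN 1 and Sulindac 1 were for 5 of 8 within their groups, with Spdef and Spink4 among the 5 in each.

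The regulators of the secretory lineage split between genes that fell with the goblet genes and genes that did not. Of 14 regulators tested, 6 were lower and 3 higher in Adenoma than in MIN, with a median of -0.28. Over all genes tested, 20.1% were lower and 18.5% higher, so 3 of 14 higher is near that share. Atoh1, the master factor of secretory fate, was at 16.1, 15.4 and 17.8 CPM in MIN, 2.02, 1.62 and 0.925 CPM in Adenoma, and 1.67, 1.01 and 0.727 CPM in Sulindac. All MIN samples lay above the others, and Adenoma and Sulindac overlapped. The change was -3.43 in Adenoma (SE 0.27, adjusted p = 1.31e-05). Neurog3, the enteroendocrine factor, changed by -3.75 (SE 0.50, adjusted p = 0.000282), and by -4.44 without Adenoma 2. The Notch ligand Dll1 changed by -2.31 (SE 0.16, adjusted p = 5.84e-06) and Creb3l1, an endoplasmic reticulum stress transducer, by -1.87 (SE 0.17, adjusted p = 2.73e-05). Dll1 shares 16.1% of its 50-base stretches with A930024N18Rik, and Neurog3 shares 13.3% with Fam241b.

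The remaining regulator calls were smaller. Gfi1, which acts below Atoh1, changed by -1.05 (adjusted p = 0.00214) and Dll4 by -0.81 (adjusted p = 0.00908). Gfi1 was not called without MIN 1 (adjusted p = 0.0111), MIN 2 (0.0116) or Adenoma 1 (0.0112). Dll4 was not called without MIN 1 (adjusted p = 0.0362), MIN 2 (0.0371), Adenoma 2 (0.0334) or Adenoma 3 (0.0275). Sox9, a factor of crypt progenitors and Paneth cells, rose by 1.42 (SE 0.11, adjusted p = 1.1e-05) and the forkhead factor Foxa3 by 0.89 (SE 0.14, adjusted p = 0.00071). Foxa1 rose by 0.45 (adjusted p = 0.00864), a call lost without any single sample except Adenoma 3, with adjusted p from 0.0204 to 0.0441. Klf4, a factor of goblet cell differentiation, differed by -0.01 (adjusted p = 0.973), Foxa2 by -0.46 (adjusted p = 0.0536), Creb3l4 by 0.15 (adjusted p = 0.603), the unfolded protein response factor Xbp1 by -0.10 (adjusted p = 0.563) and the Notch target Hes1 by -0.05 (adjusted p = 0.805).

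**Figure D4:**
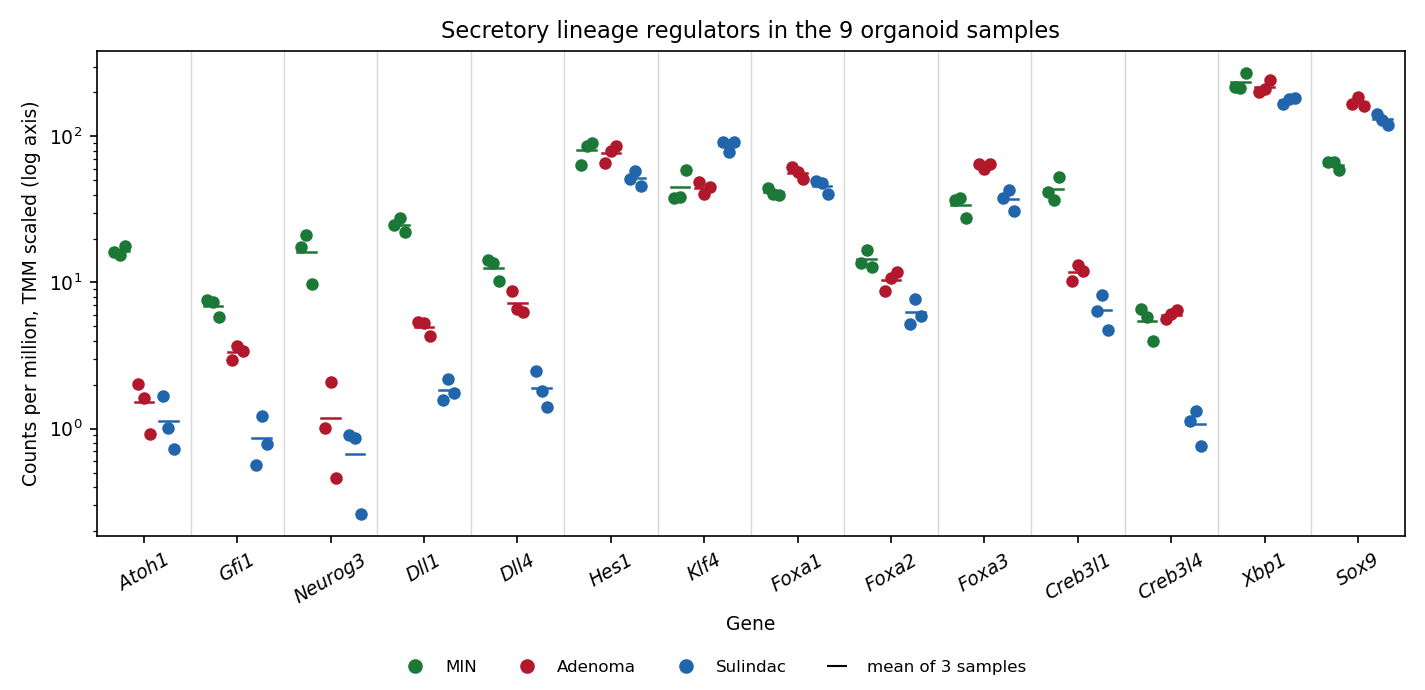
Level of 14 regulators of the secretory lineage in every sample, in TMM-scaled CPM on a log axis, with group means as lines. Atoh1, Neurog3, Dll1 and Creb3l1 are lower in all Adenoma than in all MIN samples, while Klf4 is higher in all Sulindac samples than in all others.

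Against Adenoma, 6 of the 14 regulators were lower and 1 was higher in Sulindac, with a median of -0.74. Over all genes tested, 9.10% were lower and 8.32% higher, so 1 of 14 higher is near that share. Klf4 was at 37.7, 38.5 and 58.5 CPM in MIN, 48.5, 40.4 and 44.8 CPM in Adenoma, and 91.8, 78.2 and 92.1 CPM in Sulindac. The Sulindac samples lay above all others, and MIN and Adenoma overlapped. Klf4 rose by 0.98 against Adenoma (SE 0.12, adjusted p = 0.000689) and by 0.96 against MIN (SE 0.17, adjusted p = 0.00144). Creb3l4 fell by 2.49 on the log2 scale (SE 0.24, adjusted p = 0.000296) and Dll4 fell by 1.93 (SE 0.26, adjusted p = 0.00117). Gfi1 changed by -1.94 (adjusted p = 0.00202, and 0.0137 without Sulindac 3), Dll1 by -1.44 (adjusted p = 0.0017, 0.0102 without Sulindac 1 and 0.0118 without Sulindac 3) and Foxa3 by -0.75 (adjusted p = 0.00262, 0.0127 without Sulindac 1 and 0.0121 without Sulindac 3). Hes1 changed by -0.57 (adjusted p = 0.0099), a call lost without any single sample except Adenoma 1, with adjusted p from 0.0133 to 0.0515. Atoh1 differed by -0.43 (SE 0.40, adjusted p = 0.449), and neither it nor the other 6 regulators were called.

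Against MIN, 10 regulators were lower and 2 higher (Klf4 and Sox9) in Sulindac, where 26.8% of all genes tested were lower and 23.0% higher. Of the 10, Xbp1 (-0.41, adjusted p = 0.00893) was not called with any single sample left out (adjusted p from 0.0107 to 0.0387), and Hes1 (-0.64, adjusted p = 0.00447) was not called without MIN 2 (0.0167), Sulindac 1 (0.0171) or Sulindac 3 (0.0219). Atoh1 changed by -3.87 (SE 0.27, adjusted p = 4.75e-06) and Dll1 by -3.76 (SE 0.17, adjusted p = 3.63e-07). Sox9 was 1.03 higher (SE 0.10, adjusted p = 3.15e-05).

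Other genes known from goblet cells moved mostly with the 9 genes but not without exception. Of 20 such genes 19 were tested in Adenoma against MIN, and 13 were lower and 1 higher, with a median of -2.37. Over all genes tested, 20.1% were lower and 18.5% higher. Tpsg1, Rep15, Pla2g10, Capn9 and Scin passed the filter only through MIN, so they could be called only lower. Klk1, a tissue kallikrein, changed by -4.65 (SE 0.20, adjusted p = 3.59e-07), and shares 15.9% of its 50-base stretches with Klk1b5. Guca2a, the hormone guanylin, changed by -4.41 (SE 0.35, adjusted p = 1.32e-05). The actin-severing protein Scin changed by -9.79 (SE 0.63, adjusted p = 4.06e-06) and by -10.7 without Adenoma 3. Scin had 1, 1 and 4 counts in Adenoma, near the floor, so the size of its change is imprecise. The exception was Bcas1, at 7.83, 7.35 and 11.1 CPM in MIN, 47.1, 43.4 and 35.4 CPM in Adenoma, and 3.97, 5.44 and 3.78 CPM in Sulindac. All Adenoma samples lay above the rest. Bcas1 rose by 2.27 (SE 0.19, adjusted p = 1.83e-05) in Adenoma and then changed by -3.25 in Sulindac (SE 0.18, adjusted p = 4.12e-05). Its antisense gene Bcas1os1 shares 8.98% of its 50-base stretches, and whether the counting used strand is not given in the sources used here. Sulindac against Adenoma had 2 of 14 genes higher and 5 lower, where 8.32% of all genes tested were higher and 9.10% lower. Bace2, a beta-secretase, was higher by 2.63 (SE 0.26, adjusted p = 0.000329). Among the 5 lower genes were Bcas1 and Klk1, the latter at -2.19 (SE 0.30, adjusted p = 0.00133). Klk1 (9, 9 and 8 counts in Sulindac) and Hpd (1, 2 and 0) passed the filter there only through Adenoma, so they could be called only lower.

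Among the other mucins and trefoil factors 3 of 5 tested were lower in Adenoma, the membrane mucins Muc13, Muc4 and Muc20. Another 2 were higher, Tff2 and Muc6, and the median was -2.80. Over all genes tested, 20.1% were lower and 18.5% higher. Tff2 and Muc6 passed the filter only through Adenoma and Muc20 only through MIN, so each could be called in only 1 direction. Muc13, a membrane mucin of enterocytes and goblet cells, was at 832, 930 and 1102 CPM in MIN, 33.6, 35.2 and 27.8 CPM in Adenoma, and 23.6, 17.7 and 17.2 CPM in Sulindac. The groups did not overlap, and the change from MIN to Adenoma was -4.89 (SE 0.17, adjusted p = 1.55e-07). Muc4 changed by -6.45 (SE 0.36, adjusted p = 1.77e-06). Muc20, with 1 to 5 counts in Adenoma, changed by -2.80 (adjusted p = 0.00229), a call lost without Adenoma 1 (adjusted p = 0.0112) or Adenoma 3 (0.0101), and was -3.58 without Adenoma 2. Muc20 shares 12.1% of its 50-base stretches with Muc4.

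Tff2, the trefoil factor of stomach mucous neck and Brunner's glands, had 0, 2 and 0 counts in MIN, 44, 174 and 70 in Adenoma and 3, 17 and 11 in Sulindac. The Adenoma samples were the highest, and Adenoma 2 gave 174 of their 288 counts. Pooled over samples, the ratio of Adenoma to MIN was 169 (95% interval 46.4 to 1405, counting error only, adjusted p = 0.000215). The fitted log2 change of 7.14 was 9.64 without MIN 2, the only MIN sample with a count, and 6.42 without Adenoma 2. Muc6, the gland mucin of the stomach, had 2, 1 and 9 counts in MIN, 14, 177 and 89 in Adenoma and 3, 8 and 3 in Sulindac. Its change of 4.70 (SE 1.02, adjusted p = 0.00459) ranged from 3.87 without Adenoma 2 (adjusted p = 0.0123) to 6.14 without MIN 3 (adjusted p = 0.00733), and its call was also lost without MIN 1 (adjusted p = 0.0183), MIN 2 (0.0187) or Adenoma 3 (0.0196). Both were lower after sulindac than in Adenoma, Muc6 changing by -4.16 (adjusted p = 0.0095) and Tff2 by -3.08 (adjusted p = 0.00742), and each call was lost without any single sample except Adenoma 1, with adjusted p up to 0.0449 and 0.0345. Without Adenoma 2 the changes were -3.31 for Muc6 and -2.34 for Tff2, and without Sulindac 2 that of Muc6 was -4.75. There too, Muc6 and Tff2 passed the filter only through Adenoma, so they could be called only lower in Sulindac. The surface mucin Muc5ac and the salivary and airway mucin Muc5b had at most 3 counts in any sample.

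Genes that build mucin sugar chains were lower in Adenoma more often than higher, with 9 of 15 lower, 1 higher and a median of -0.97. Over all genes tested, 20.1% were lower and 18.5% higher. Galnt5 and St6galnac1 passed the filter only through MIN, so they could be called only lower. Gcnt4, with 7 counts in Adenoma 2, also met the filter in all 3 samples only in MIN. Gcnt4, a branching enzyme of O-glycans, changed by -7.03 (SE 0.23, adjusted p = 1.1e-07). Galnt5, which starts O-glycan chains, had 545 counts in the MIN samples together and 2 in Adenoma, a scaled ratio of 232 (95% interval 63.9 to 1919). St6galnac1, which caps chains with sialic acid, had 298, 248 and 140 counts in MIN and 0 in each Adenoma sample, at least 64.2-fold higher in MIN against a floor of 3 counts per sample, though 34.9% of its 50-base stretches occur in Gm11735. Fut2, the fucosyltransferase that makes H antigen on mucus, rose by 4.17 (SE 0.36, adjusted p = 2.31e-05). Between Sulindac and Adenoma 1 of 13 genes of the list was called, Galnt7, which was higher by 0.93 (SE 0.12, adjusted p = 0.00104). Over all genes tested, 8.32% were higher and 9.10% lower in that comparison, so 1 of 13 higher is near that share.

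Of the general folding and export genes of the endoplasmic reticulum, 3 of 20 were lower in Adenoma and the rest were not called, near the 20.1% of all genes that were lower, with a median of -0.17. The disulfide-forming Qsox1 changed by -1.97 (SE 0.12, adjusted p = 2.45e-06), the prolyl isomerase Fkbp11 by -0.94 (adjusted p = 0.0024) and the isomerase Pdia5 by -0.90 (adjusted p = 0.000547). After sulindac 5 of 20 were lower and 1 higher than in Adenoma, with a median of -0.35. Over all genes tested, 9.10% were lower and 8.32% higher in that comparison. Fkbp11 changed by -1.74 (SE 0.19, adjusted p = 0.000493), Pdia5 by -1.17 (SE 0.17, adjusted p = 0.00144) and Txndc5 by -0.82 (SE 0.10, adjusted p = 0.000919), while Qsox1 rose by 0.87 (SE 0.12, adjusted p = 0.00115). Against MIN, 13 of the 20 were lower in Sulindac and 1 was higher, where 26.8% of all genes tested were lower and 23.0% higher.

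**Figure D5:**
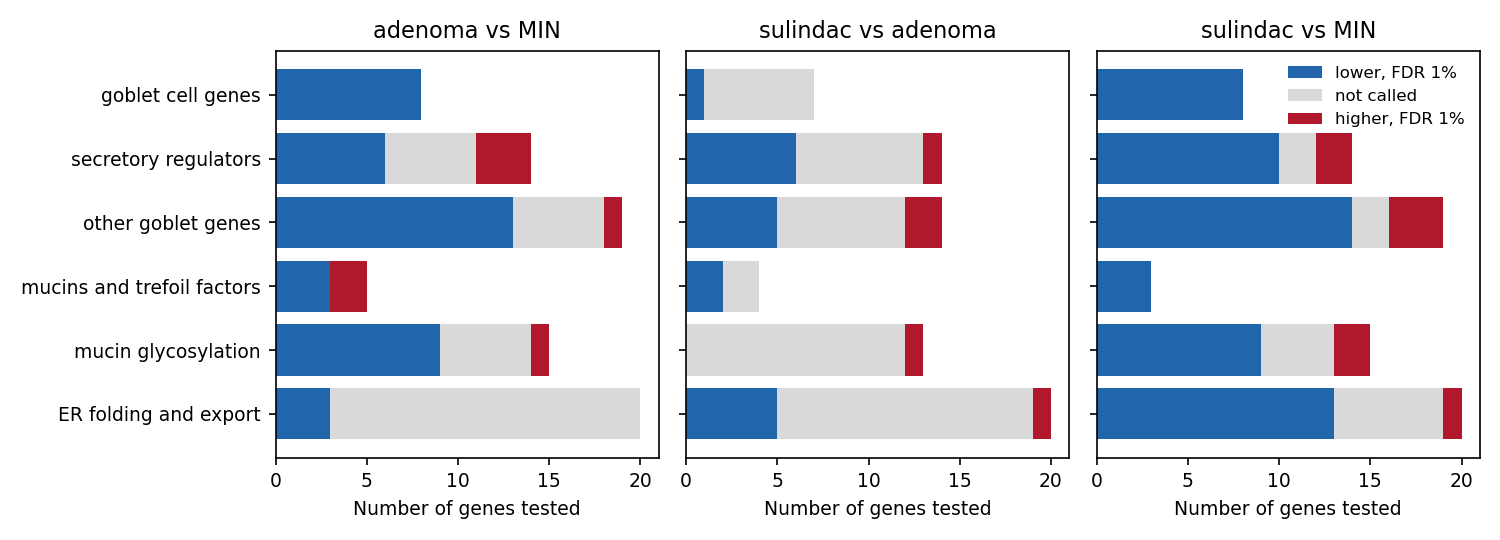
Number of genes tested in each list that were lower (blue), not called (grey) or higher (red) at an FDR of 1% in the 3 comparisons. All 8 goblet cell genes tested are lower in both comparisons with MIN, and 1 of 7 is lower in Sulindac against Adenoma.

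Markers of other differentiated cells were also mostly lower in Adenoma than in MIN. Over all genes tested, 20.1% were lower there, and 9.10% were lower in Sulindac than in Adenoma. Paneth markers summed to 7774 to 10599 CPM in MIN, against 916 to 1392 CPM in Adenoma and 178 to 276 CPM in Sulindac, with 4 of 6 lower and 1 higher (Mmp7) in Adenoma than in MIN and 4 of 5 lower in Sulindac than in Adenoma. Enteroendocrine markers summed to 291 to 559 CPM in MIN and to no more than 0.436 CPM elsewhere, with 5 of 5 lower in Adenoma. Enterocyte markers summed to 2395 to 3543 CPM in MIN, against 48.7 to 81.3 CPM in Adenoma and 11.3 to 28.6 CPM in Sulindac, with 5 of 5 lower in Adenoma and 2 of 3 lower in Sulindac than in Adenoma. Tuft markers summed to 7.78 to 14.3 CPM in MIN and 1.60 to 3.32 CPM in Adenoma, with 2 of 4 lower. Stem cell markers summed to 1121 to 2224 CPM in MIN and 340 to 588 CPM in Adenoma, with 2 of 4 lower (Lgr5 and Olfm4) and 1 higher (Ascl2). Of the epithelial markers 3 of 4 were lower in Adenoma than in MIN. Fibroblast markers, led by Col1a1 and Pdgfra, summed to 0.385 to 0.763 CPM in MIN and 1.91 to 2.28 CPM in Adenoma, with 1 of 2 higher. All 5 enteroendocrine markers passed the filter in Adenoma against MIN only through MIN, so they could be called only lower. Chgb, the most abundant of them, had 3, 5 and 2 counts in Adenoma. Among the other markers called lower in Adenoma, Alpi, Apoa4, Lyz2, Dclk1 and Olfm4 also passed the filter only through MIN. The part of any of these cell types in the goblet gene differences was not tested.

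Over the 9 samples, the genes outside the 9 whose log2(CPM + 0.5) followed Muc2 most closely were Pcsk1 (Pearson r = 0.999), Chga (0.999), Gcg (0.999), Naprt1 (0.998) and Smpdl3a (0.998), among 10555 candidates. Among those closest to Spdef were Gm7849 (Pearson r = 0.998), Defa26 (0.998), Sis (0.998) and Mttp (0.998). Both sets hold genes of other gut cells, with Chga and Gcg made by enteroendocrine cells, Defa26 by Paneth cells, and Sis and Mttp by enterocytes. The samples fall into 3 groups with MIN high, so a high r is shared by any gene that is much higher in MIN.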

How the data were processed

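The authors deposited raw counts per gene symbol for 9 organoid samples, and the submitters' processing notes name RSEM, Bowtie2 2.2.4 and the build mm9. The annotation and the use of strand are not given in the sources used here. For MIN 1 the sum of its 2 runs was used. Another 27 rows carry dates in place of symbols and were tested but not named. Counts were filtered (filterByExpr), TMM-scaled and tested with edgeR 4.0.16 in R 4.3.3 (robust quasi-likelihood, Benjamini-Hochberg adjustment over all genes tested, FDR 1%), with only the groups compared in each fit. The script was tested on simulated data. DESeq2 1.42.0, other scalings, filters and thresholds, leaving out samples and a replicate block were alternatives. Levels are CPM from TMM over all 9 samples. A gene with too few counts for the filter in 1 group passed only through the other group, so it could be called in only 1 direction.

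The members and lists were chosen with earlier results of these data known. All 9 members and all 14 regulators are named, and of each other list at most 3 genes per direction, those with the largest called changes whose groups did not overlap. Likeness lists were drawn from the 5 highest Pearson correlations among genes with a mean of at least 5 CPM, of which 1 is not reported here. Lengths and shared stretches came from GENCODE M21 on GRCm38 and promoters from RefSeq, not from the build of the counts.

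The sources used here do not say whether equal replicate numbers in the titles mark paired samples. Deviations from the group means correlated weakly in same-numbered Adenoma and MIN samples (r = 0.13, 0.11 and 0.19). Between unlike numbers r ran from -0.15 to 0.070, so pairing remains uncertain. The blocked fit also called all 8 members tested lower in Adenoma than in MIN.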

Additional observations from a re-analysis of the deposited data

How the results depend on the processing

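All 8 goblet genes tested in Adenoma against MIN remained called lower under every alternative that tested them, including RLE or library size scaling, DESeq2, the replicate block and each sample left out (8 called), and also with MIN 3 and Adenoma 3 both left out, an alternative chosen after seeing the data (8 called). Scaling by library size alone moved the median log2 change of all genes to 0.12 there. Against MIN, Sulindac had 8 lower, and 5 when at least 10 counts were required in every sample, which leaves out genes near the floor. In Sulindac against Adenoma, where 1 gene was lower, 3 were lower with library size alone, 2 without a low-count filter, 4 with all 9 samples in 1 fit, 3 with DESeq2, 4 at an FDR of 5% and 1 to 3 with single samples left out. The number of all genes called lower moved as well, from 1179 to 1983, 1243, 1365, 1732, 2374 and 386 to 1488 in the same order. With a replicate block 2 were lower, of 1061 in all, Tff3 joining Agr2 (-0.99, adjusted p = 0.00224). Same-numbered samples correlated unevenly here (r = 0.26, 0.21 and -0.08, and for Sulindac against MIN -0.03, 0.40 and 0.26), so pairing is uncertain here too. With the block all 8 were lower in Sulindac against MIN. The cause of these changes was not tested.

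Uncalled values near 0 changed sign. In Adenoma against MIN, Klf4 was 0.13 with library size alone, 0.018 with the replicate block, 0.22 with MIN 3 and Adenoma 3 left out and -0.13 to 0.22 with single samples left out. Creb3l4 was -0.081 with both left out and -0.033 to 0.29 with single samples left out, Xbp1 was 0.031 with library size alone and -0.19 to 0.019, and Hes1 was 0.081 and -0.20 to 0.049. In Sulindac against Adenoma, Muc2 ranged from -0.56 to 0.033 and Fcgbp from -0.76 to 0.056, and in Sulindac against MIN Foxa3 ranged from -0.014 to 0.24. Genes with few counts in Sulindac, such as Spdef and Muc2, have limited precision.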
